A study of Mus musculus with 21 samples.

Results

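Transcript levels of 9 podocyte genes, Nphs1, Magi2, Cd2ap, Plce1, Podxl, Ptpro, Synpo, Actn4 and Wt1, were examined in kidney RNA-seq data from 17 mice. The genes were a given list, found by symbol in the deposited gene names, and all 9 were among the 21004 genes listed for the Con and Ade mice. The mice were female apoE knockout (KO) mice on the C57BL/6J background, started on their diets at 4 weeks of age, fed for 14 weeks and 18 weeks old at collection. The Con group (n = 5) received the control diet, the Ade group (n = 6) the same diet with adenine, and the Ade + IMC group (n = 6) adenine together with iodomethylcholine (IMC), which blocks the step by which gut microbes form trimethylamine from choline. Every group lacks apoE, so no group has a wild-type genotype, and the Con + IMC mice (n = 4 in the labels) were not analysed here. Adenine feeding is a model of chronic kidney disease in which adenine is oxidised to a poorly soluble product that precipitates in the tubules, and each library was made from whole kidney, in which podocytes are a small minority of the cells.

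Podocytes are the epithelial cells that wrap the glomerular capillaries, and their interlocking foot processes are joined by the slit diaphragm, the last layer of the filtration barrier. Nephrin (Nphs1) spans the slit and is tied through scaffold proteins to an actin cytoskeleton that holds the foot processes in shape, while a negatively charged coat on the apical surface keeps neighbouring processes apart. Wt1 is a transcription factor that adult podocytes need to keep expressing many of these genes, and inherited loss of several of the 9 genes causes nephrotic syndrome or glomerulosclerosis.

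Total counts per mouse were 7716126 to 11680809 in the Con group, 5444833 to 7673215 in the Ade group and 5728589 to 8305968 in the Ade + IMC group. Levels are given as CPM, each count as a share of its library total after TMM scaling over the 17 mice, a scaling that sets the bulk of genes equal between libraries. Each of the 9 genes was counted in every mouse, and the lowest count was 63, for Wt1 in Ade mouse 207. On a per-length scale in the Con mice (CPM per kilobase of annotated exon), Podxl (89.2 ± 9.20, SD, n = 5) and Actn4 (76.0 ± 3.67) were the most abundant. Synpo (13.8 ± 1.52), Cd2ap (9.04 ± 1.17), Nphs1 (7.89 ± 1.48), Ptpro (5.24 ± 0.836) and Wt1 (4.56 ± 0.753) followed, and Magi2 (2.02 ± 0.273) and Plce1 (1.41 ± 0.132) were the lowest. In this order the ranges of the neighbours Podxl and Actn4, Cd2ap and Nphs1, Nphs1 and Ptpro, and Ptpro and Wt1 overlapped between mice, and those of the other neighbours did not. Actn4, Cd2ap and Plce1 are also made by other kidney cells, and in whole kidney fewer podocytes cannot be told apart from less RNA per podocyte.

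In Ade against Con, 3 of the 9 genes passed edgeR's quasi-likelihood test at a Benjamini-Hochberg adjusted p below 0.1, the level used throughout. Magi2 fell, against 32.2% of the 14612 genes tested that were called lower. Plce1 and Synpo rose, against 35.1% of genes called higher, but by small amounts, and their calls, though not their direction, were lost in several other settings. Nphs1, Podxl, Ptpro and Wt1 were spread widely among the Ade mice and were not called. With mice blocked by the leading digit of their number, Nphs1 and Podxl were called lower and Plce1 and Synpo were not called. The median log2 fold change of the 9 genes was -0.07, beside 0.02 over all genes tested.

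**Figure D1:**
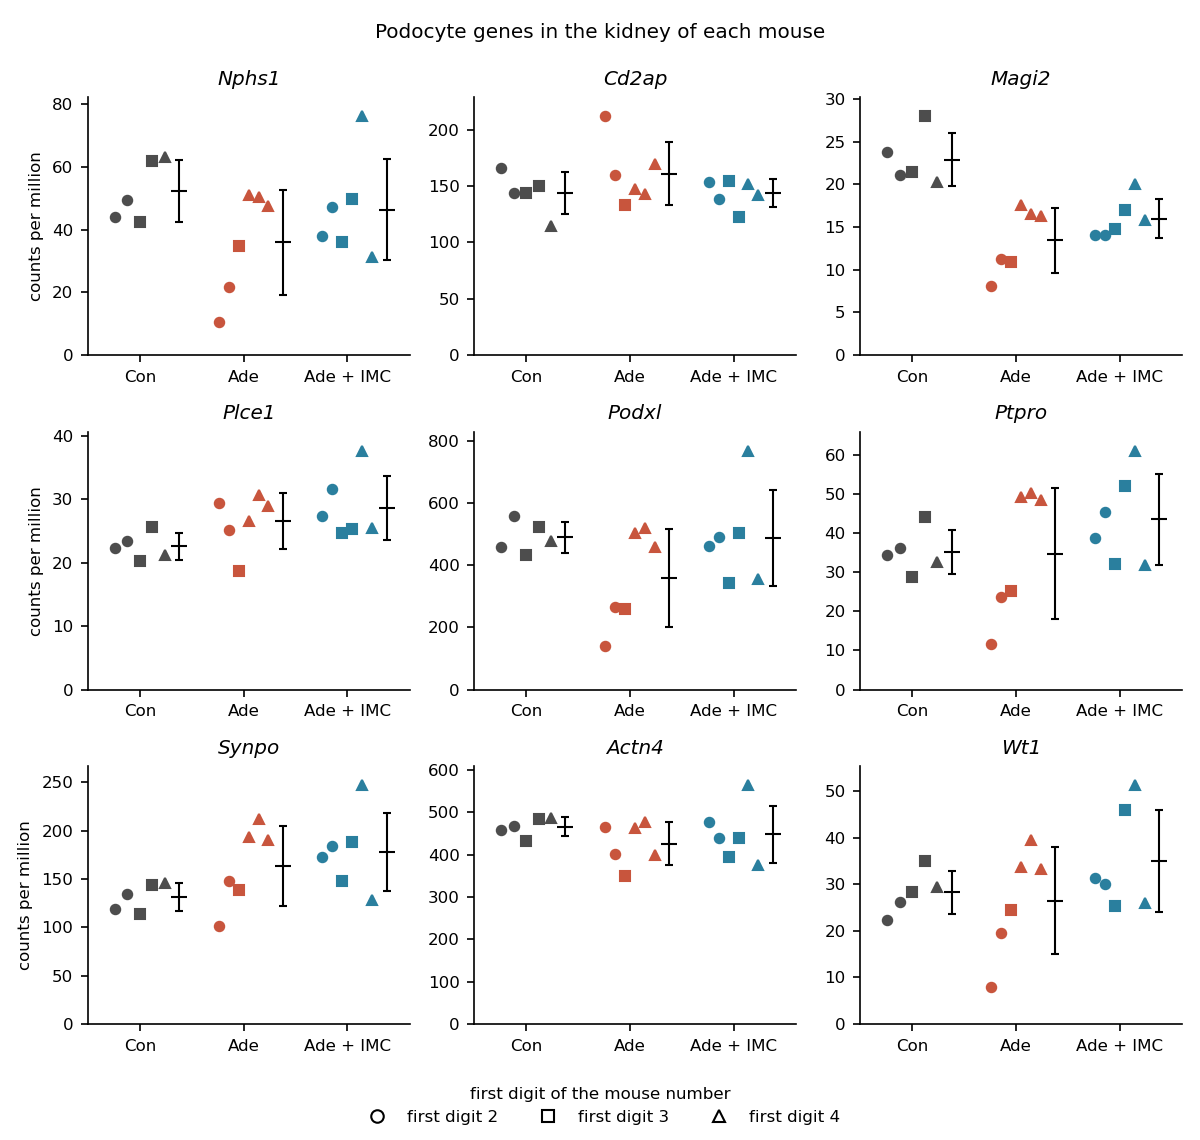
Level of each of the 9 podocyte genes in each mouse (vertical axes, CPM on the TMM scale, each starting at 0), with 1 point per mouse, the shape giving the leading digit of the mouse number and the bar the mean and SD of the group. Magi2 of the Ade mice (8.13 to 17.6) lies under every Con mouse (20.3 to 27.9), and Nphs1 and Podxl of Ade mice 207, 208 and 308 lie under the other 3.

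Nphs1, nephrin, was at 43.9, 49.5, 42.5, 61.8 and 63.2 CPM in Con mice 201, 202, 301, 302 and 403. It was at 10.7, 21.7, 34.8, 50.9, 50.3 and 47.6 CPM in Ade mice 207, 208, 308, 407, 408 and 409. In Ade + IMC mice 211, 212, 310, 311, 410 and 412 it was at 37.9, 47.1, 35.9, 49.8, 76.0 and 31.4 CPM. Ade mice 207, 208 and 308 were below every Con mouse and the other 3 Ade mice were within the Con range. The log2 fold change in Ade against Con was -0.52 (SE 0.31, adjusted p = 0.160, edgeR), and it was -0.65 (adjusted p = 0.0860) without Ade mouse 407, the only mouse whose removal brought Nphs1 past the threshold. Without Ade mouse 207 it was -0.32 (adjusted p = 0.195), and with mice blocked by the leading digit of their number, a split described further on, it was -0.87 (adjusted p = 0.00489). Of the 6620 annotated exon bases of Nphs1, 780 are shared with genes on the other strand (Nphs1os and Rps12-ps4), and since the use of strand in the counting is not given in the sources used here, reads there cannot be assigned.

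Magi2, a multi-domain scaffold at the slit diaphragm that binds nephrin, was at 23.7, 21.1, 21.4, 27.9 and 20.3 CPM in the Con mice, in the order given for Nphs1. It was at 8.13, 11.2, 10.9, 17.6, 16.5 and 16.3 CPM in the Ade mice and at 14.0, 14.1, 14.8, 17.01, 20.04 and 15.8 CPM in the Ade + IMC mice. Every mouse of both adenine groups was below every Con mouse, and of the 9 genes only Magi2 had groups that did not overlap in Ade against Con, beside 43.0% of all genes tested. Its log2 fold change was -0.75 (SE 0.18, adjusted p = 0.00254, edgeR), and the exact two-sided permutation test over mice gave p = 0.00433, where the smallest possible value is 0.00216. Magi2 stayed called lower in each alternative setting tried for this comparison, with an adjusted p of at most 0.0266. Of its 11348 exon bases, 203 are shared with Gm29254.

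Since Magi2 was the member that differed most and Ptpro moved closely with Nphs1 between mice, the sequence upstream of their start sites is shown. RefSeq (GRCm38.p6) promoter windows were available for 6 of the 9 genes, with 2 start sites for Magi2. The Magi2 stretches are chr5:19226796-19227035 and chr5:19907268-19907517 on the plus strand, the earlier of them ending where the annotated exon begins. The Ptpro stretch is chr6:137252049-137252298, also on the plus strand and with no annotated exon in it. Windows of 250 bases before each start were searched on both strands for letters bound by podocyte transcription factors: GCGNGGGNG for WT1, TAATTA for LMX1B and TGTTTAC for FOXC proteins, 3 motifs that do not overlap each other in these windows. Capitals mark a match.
Magi2, upstream start site: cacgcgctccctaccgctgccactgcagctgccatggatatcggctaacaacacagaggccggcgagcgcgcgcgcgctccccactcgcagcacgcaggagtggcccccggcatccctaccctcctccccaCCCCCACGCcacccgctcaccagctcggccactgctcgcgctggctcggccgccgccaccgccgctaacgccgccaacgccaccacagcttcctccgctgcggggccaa
Magi2, downstream start site: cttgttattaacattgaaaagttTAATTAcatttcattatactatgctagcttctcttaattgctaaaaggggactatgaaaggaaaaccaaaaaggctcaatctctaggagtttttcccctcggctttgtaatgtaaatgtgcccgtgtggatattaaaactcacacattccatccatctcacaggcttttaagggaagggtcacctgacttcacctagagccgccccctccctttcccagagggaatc
Ptpro: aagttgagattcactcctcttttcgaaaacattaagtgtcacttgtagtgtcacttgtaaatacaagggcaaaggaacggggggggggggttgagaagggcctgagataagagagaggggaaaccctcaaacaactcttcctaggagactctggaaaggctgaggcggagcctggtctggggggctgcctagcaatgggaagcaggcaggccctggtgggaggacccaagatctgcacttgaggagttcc
The upstream Magi2 window held the reverse complement of the WT1 motif, 119 bases before the start, and the downstream window held TAATTA, 227 bases before it. The Ptpro window held none of the 3 motifs, nor did those of Nphs1 and Plce1, which lie in annotated exons. The windows of Actn4 and Cd2ap held 2 matches and 1 match of the WT1 motif, and 241 of the 250 bases of the Cd2ap window lie in an annotated exon. Over 32851 promoter windows of the same length, 10.51% held the WT1 motif, 4.84% the LMX1B motif and 3.17% the FOXC motif, so a match of the WT1 letters is common and is a description of these windows only.

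Cd2ap, an adaptor that links nephrin to actin and to endocytosis, had an SD of 12.9% of its mean in the Con mice. In the Ade mice the SD was 17.4% of the Cd2ap mean, and in the Ade + IMC mice 8.38%. Cd2ap was at 115 to 166 CPM (median 144) in the Con mice, 133 to 212 (median 154) in the Ade mice and 123 to 154 (median 147) in the Ade + IMC mice, and the 3 ranges overlapped. The log2 fold change in Ade against Con was 0.19 (SE 0.12, adjusted p = 0.200, edgeR). Ade mouse 207, which had the lowest Nphs1 of all mice, had the highest Cd2ap.

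Plce1, a phospholipase C that interacts with slit diaphragm proteins, was at 22.3, 23.4, 20.3, 25.7 and 21.2 CPM in the Con mice and at 29.5, 25.1, 18.7, 26.6, 30.7 and 29.0 CPM in the Ade mice. It was at 27.4, 31.6, 24.7, 25.3, 37.6 and 25.5 CPM in the Ade + IMC mice. In 4 of the 6 Ade mice it was above every Con mouse, and Ade mouse 308 was below every Con mouse. The log2 fold change in Ade against Con was 0.26 (SE 0.12, adjusted p = 0.0648, edgeR). The call was lost with DESeq2 (adjusted p = 0.131) and when any of Ade mice 207, 408 and 409 or Con mice 201, 301 and 403 was left out, with log2 fold changes of 0.22 to 0.25 and adjusted p-values of 0.108 to 0.144. The Plce1 call was also lost with no filter on low counts, where 0 of the 9 genes were called higher.

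Podxl, podocalyxin, the main sialoprotein of the apical coat and also a product of endothelial cells, was at 457, 557, 432, 522 and 478 CPM in the Con mice. It was at 140, 267, 260, 503, 521 and 459 CPM in the Ade mice and at 461, 490, 342, 504, 768 and 357 CPM in the Ade + IMC mice. The same 3 Ade mice as for Nphs1 were below every Con mouse, and the other 3 were within the Con range. The log2 fold change in Ade against Con was -0.43 (SE 0.27, adjusted p = 0.187, edgeR), and it passed the threshold without Ade mouse 407 (-0.56, adjusted p = 0.0890) or Ade mouse 408 (-0.56, adjusted p = 0.0966). Without Ade mouse 207 it was -0.26 (adjusted p = 0.270), and with the leading digit as a block -0.79 (adjusted p = 0.0121).

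Ptpro, a receptor tyrosine phosphatase of the apical podocyte surface, was at 34.4, 36.1, 28.8, 44.0 and 32.7 CPM in the Con mice. In the Ade mice it was at 11.6, 23.7, 25.2, 49.1, 50.3 and 48.5 CPM, so that 3 mice were below and 3 were above every Con mouse. The group means were nearly equal, 35.2 ± 5.62 CPM in Con and 34.7 ± 16.7 CPM in Ade, and the log2 fold change was 0.00 (SE 0.30, adjusted p = 0.994, edgeR). The SD in the Ade mice was 47.9% of the mean, beside 16.0% in the Con mice.

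Synpo, synaptopodin, which bundles and stabilises the actin of the foot processes, was at 119, 134, 114, 144 and 146 CPM in the Con mice. It was at 101, 148, 139, 193, 212 and 190 CPM in the Ade mice and at 172, 184, 148, 189, 247 and 129 CPM in the Ade + IMC mice. In 4 of the 6 Ade mice and 5 of the 6 Ade + IMC mice it was above every Con mouse, and Ade mouse 207 was below every Con mouse. The log2 fold change in Ade against Con was 0.34 (SE 0.16, adjusted p = 0.0852, edgeR), a call that was lost with DESeq2 (adjusted p = 0.131) and when any of Ade mice 407, 408 and 409 or Con mice 201, 202 and 301 was left out, with log2 fold changes of 0.26 to 0.34 and adjusted p-values of 0.122 to 0.180. The Synpo call was also lost with no filter on low counts.

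Actn4, an actin crosslinking alpha-actinin found in many cell types, was at 432 to 487 CPM (median 468) in the Con mice, 350 to 476 (median 432) in the Ade mice and 376 to 563 (median 439) in the Ade + IMC mice. Its log2 fold change in Ade against Con was -0.11 (SE 0.10, adjusted p = 0.357, edgeR). Wt1 was at 22.3 to 35.1 CPM (median 28.3) in the Con mice and 25.3 to 51.2 (median 30.7) in the Ade + IMC mice. In the Ade mice it was at 8.01, 19.5, 24.6, 33.7, 39.6 and 33.3 CPM, with the lowest and the next lowest value of any mouse in 207 and 208. The log2 fold change in Ade against Con was -0.07 (SE 0.29, adjusted p = 0.839, edgeR).

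**Figure D2:**
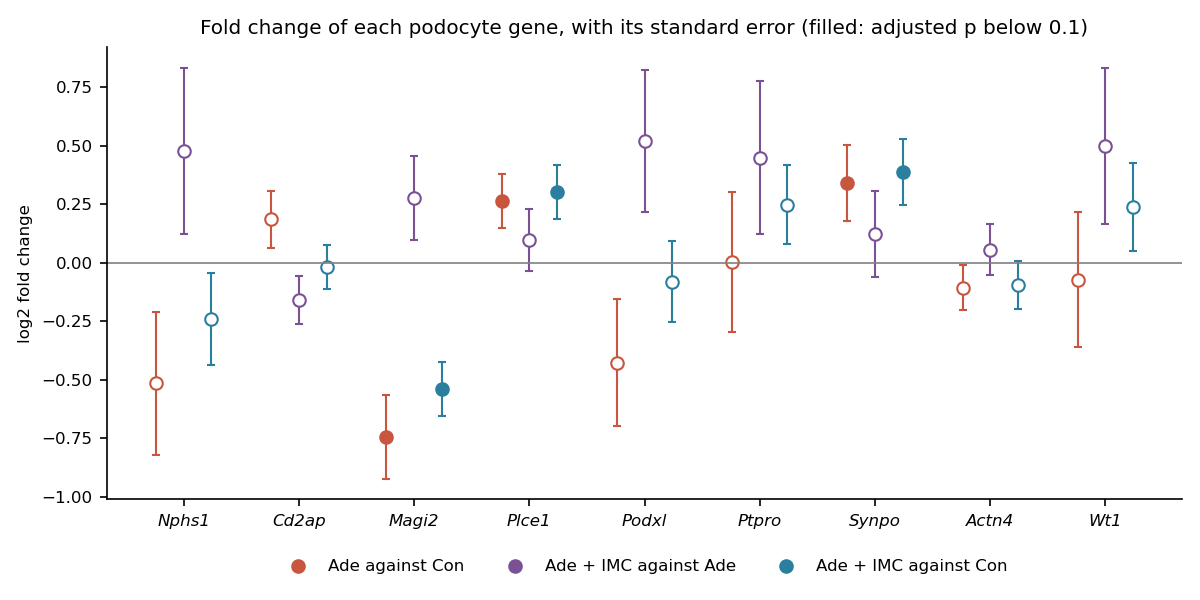
Log2 fold change (vertical axis) of each podocyte gene with its standard error in the 3 comparisons, filled where the adjusted p was below 0.1. Magi2 was lower, and Plce1 and Synpo were higher, in both comparisons with the Con mice, and no gene was called in Ade + IMC against Ade.

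The spread in the Ade mice followed the leading digit of the mouse number, whose meaning is not given in the labels. The Con group held 2 mice with digit 2, 2 with digit 3 and 1 with digit 4, the Ade group 2, 1 and 3, and the Ade + IMC group 2, 2 and 2. In 6 of the 9 genes, Nphs1, Magi2, Podxl, Ptpro, Synpo and Wt1, the Ade mice of digit 4 were all above those of digits 2 and 3, by 1.53-fold for Synpo to 2.44-fold for Ptpro in the means, beside 21.6% of all genes tested whose ranges did not overlap. Cd2ap, Plce1 and Actn4 overlapped. In the Ade + IMC mice the ranges of the same digits overlapped for each of the 9 genes.

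Other cell types moved with the same split. In the Ade mice of digits 2 and 3 the summed CPM of 8 proximal tubule markers was 2513 to 3497, and in those of digit 4 it was 4347 to 8326. The summed CPM of 8 thick limb, distal and collecting duct markers was 3852 to 5898 and 6532 to 7942, and that of 7 mesangial and pericyte markers 449 to 481 and 501 to 526. The summed CPM of 9 glomerular endothelial markers (651 to 799 and 798 to 945), the fibroblast markers (2604 to 3152 and 2502 to 3142), the parietal epithelial markers (981 to 1379 and 965 to 1076) and the leukocyte markers (1196 to 1749 and 1049 to 1685) overlapped between the same mice. No marker of these lists was at 0 in any group. Their part in the differences between the Ade mice was not tested.

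With the leading digit as a block in the fit of Ade against Con, Nphs1 fell by 0.87 on the log2 scale (SE 0.22, adjusted p = 0.00489), Podxl fell by 0.79 (SE 0.24, adjusted p = 0.0121) and Magi2 fell by 0.89 (SE 0.17, adjusted p = 0.000805, edgeR). Under this block Plce1 (0.19, adjusted p = 0.222) and Synpo (0.17, adjusted p = 0.271) were not called, so 3 of 9 genes were called lower, beside 31.0% of all genes, and 0 of 9 were called higher, beside 35.2%. The exact permutation test within digits gave p = 0.0139 for Nphs1 and for Magi2, the smallest of its 72 splits, and p = 0.0417 for Podxl. Within digit 4 alone, where there was 1 Con mouse, the mean difference in log2 CPM was -0.35 for Nphs1, -0.27 for Magi2, 0.05 for Podxl and 0.59 for Ptpro. Within digit 2 these differences were -1.60, -1.20, -1.38 and -1.08.

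To compare the genes with each other independently of library scaling, each was set against the mean log2 CPM of the other 8 in the same mouse. Relative to the others, Magi2 was at -2.73 to -2.56 in the Ade mice and at -2.17 to -1.86 in the Con mice. Synpo was at 1.30 to 1.51 in the Ade mice and at 0.75 to 1.02 in the Con mice, and Plce1 at -1.90 to -0.55 and -2.10 to -1.96. These 3 of 9 genes did not overlap between the groups, beside 24.2% of all genes set against the mean of the 9. In contrast to its spread in CPM, Magi2 varied little among the Ade mice on this scale (SD 0.06, n = 6), and Synpo did likewise (SD 0.08).

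Set against each other directly, Magi2 CPM was 19.8, 15.7, 18.8, 19.4 and 13.9% of Synpo CPM in the Con mice. It was 8.03, 7.61, 7.82, 9.10, 7.77 and 8.55% in the Ade mice and 8.13, 7.66, 9.97, 9.02, 8.11 and 12.3% in the Ade + IMC mice. The mean was 17.5 ± 2.604% in Con, 8.15 ± 0.571% in Ade and 9.20 ± 1.73% in Ade + IMC, and both adenine groups were below every Con mouse, including Ade mice 407, 408 and 409, whose Nphs1 and Podxl were within the Con range. The pair was chosen after the values were seen and joins a gene that fell with a gene that rose. Of the 36 pairs of the 9 genes, 9 had ratios that did not overlap in Ade against Con, 10 in Ade + IMC against Con and 0 in Ade + IMC against Ade, and the share over all pairs of genes was not computed.

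**Figure D3:**
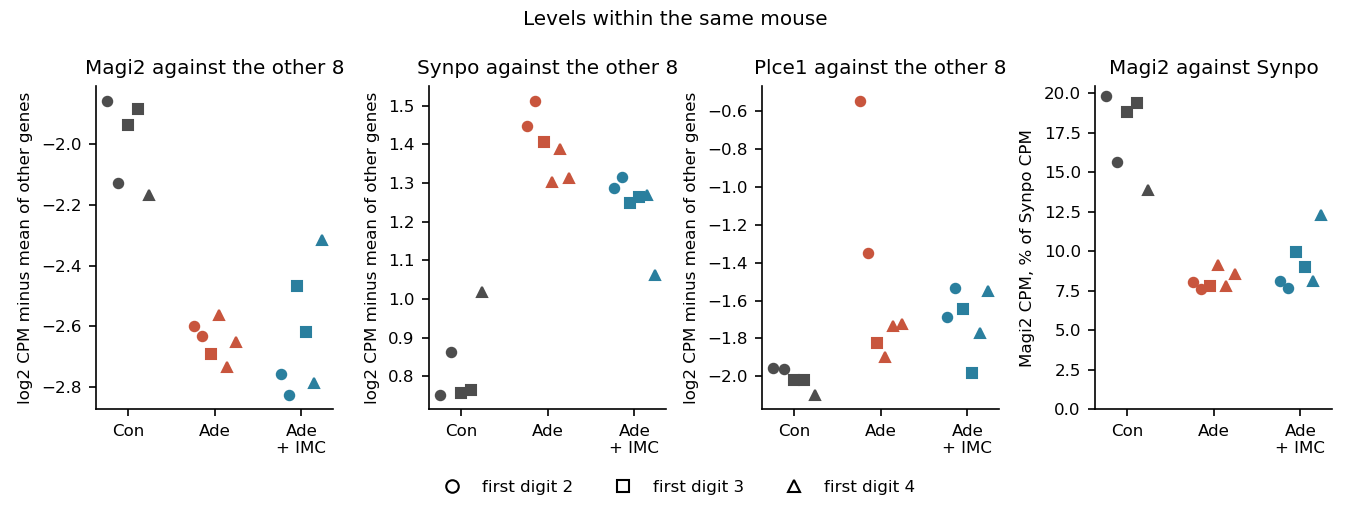
Level of Magi2, Synpo and Plce1 relative to the other 8 podocyte genes in the same mouse (log2 CPM minus the mean of the others), and Magi2 as a percentage of Synpo (from 0), by group, with 1 point per mouse and the shape giving the leading digit of the mouse number. The 6 Ade mice lie between 7.61 and 9.10% of Synpo, and the 5 Con mice between 13.9 and 19.8%.

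In Ade + IMC against Ade, 0 of the 9 genes were called by limma on log2(normalized count + 1), beside 0.0% of the 14696 genes tested, of which 988 had an unadjusted p below 0.05. Of the 9 genes 0 had an unadjusted p below 0.05 in this fit, with edgeR or with DESeq2 on the recovered reads, and over all genes edgeR called 0 and DESeq2 called 37. The log2 fold changes were 0.52 for Podxl (95% interval -0.13 to 1.17), 0.50 for Wt1 (-0.22 to 1.22), 0.48 for Nphs1 (-0.28 to 1.24) and 0.45 for Ptpro (-0.26 to 1.15). They were 0.28 for Magi2 (-0.11 to 0.66), 0.12 for Synpo (-0.28 to 0.52), 0.10 for Plce1 (-0.19 to 0.38), 0.06 for Actn4 (-0.18 to 0.29) and -0.16 for Cd2ap (-0.38 to 0.06). The intervals leave room for a rise of over 2-fold in Podxl, Wt1, Nphs1 and Ptpro and for no difference. The groups overlapped for each of the 9 genes, and 0.225% of all genes did not overlap.

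Without Ade mouse 207 the log2 fold change was 0.17 for Nphs1, 0.28 for Podxl, 0.17 for Ptpro, 0.19 for Wt1 and 0.14 for Magi2. Synpo was then at -0.01, Cd2ap at -0.08, Plce1 at 0.13 and Actn4 at 0.08. Plce1 and Actn4 were larger than with all mice, and the other 7 were nearer to 0. With the leading digit as a block the log2 fold changes were 0.63 for Podxl (SE 0.25, unadjusted p = 0.0275, adjusted p = 0.290) and 0.34 for Magi2 (SE 0.13, unadjusted p = 0.0202, adjusted p = 0.259, limma). The block left 0 of the 9 genes called, beside 0.905% of all genes (133 genes). The difference in log2 CPM between the Ade + IMC and Ade mice of digit 2 was 1.46 for Nphs1 and 1.30 for Podxl, and in those of digit 4 it was -0.02 and 0.08.

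In Ade + IMC against Con, the same 3 genes were called as in Ade against Con, a comparison that shares the Con mice. Magi2 fell by 0.54 on the log2 scale (SE 0.12, adjusted p = 0.00145, limma), with every Ade + IMC mouse below every Con mouse (exact permutation p = 0.00433) and 37.0% of all genes not overlapping. Synpo (0.39, SE 0.14, adjusted p = 0.0306) and Plce1 (0.30, SE 0.12, adjusted p = 0.0376) rose. So 1 of 9 genes was called lower, beside 32.5% of the 14578 genes tested, and 2 of 9 higher, beside 30.9%. The log2 fold changes of Nphs1 (-0.24, SE 0.20) and Podxl (-0.08, SE 0.17) were not called, though Nphs1 passed the threshold without Ade + IMC mouse 410 (-0.39, adjusted p = 0.0492) and was at -0.10 (adjusted p = 0.680) without mouse 412. Ptpro (0.25, SE 0.17) and Wt1 (0.24, SE 0.19) were not called, though Ptpro passed the threshold without Ade + IMC mouse 310 (0.34, adjusted p = 0.0986) or 412 (0.37, adjusted p = 0.0689), and with upper quartile scaling (0.33, adjusted p = 0.0991). Relative to the other 8 genes, Magi2 was lower and Synpo higher in every Ade + IMC mouse than in every Con mouse, which makes 2 of 9 genes, beside 22.8% of all genes.

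Nphs1 was compared with the other 8 genes between mice of the same group. The deviations of log2 CPM from the group means had a Pearson correlation with those of Nphs1, over 17 mice, of 0.95 for Wt1, 0.95 for Ptpro, 0.94 for Podxl, 0.93 for Synpo and 0.84 for Magi2. The correlation was 0.30 for Actn4, 0.25 for Plce1 and -0.58 for Cd2ap, beside a median of 0.01 over 14414 genes, of which 0.430% were above 0.8. Without mice 207 and 410, which lay farthest from the median, the values were 0.89 for Wt1, 0.89 for Ptpro, 0.86 for Podxl, 0.88 for Synpo and 0.70 for Magi2, and 0.54 for Actn4, 0.43 for Plce1 and -0.42 for Cd2ap. Spearman's rho over the 17 mice was 0.93, 0.89, 0.87, 0.93 and 0.69 for the same 5 genes. Within the 6 Ade mice alone Pearson's r was 0.93 to 0.99 for Wt1, Ptpro, Podxl, Synpo and Magi2, -0.07 for Actn4 and -0.03 for Plce1. Within the 6 Ade + IMC mice it was 0.75 to 0.97 for the same 5 genes, 0.87 for Actn4 and 0.83 for Plce1. Ade mouse 207, with the lowest Nphs1 (10.7 CPM), had Actn4 at 466 CPM and Plce1 at 29.5 CPM. Pearson's r within the Ade mice was not computed without this mouse. The difference between the 2 groups in Actn4 and Plce1 was not tested. Within the 5 Con mice, few for a correlation, Pearson's r was 0.96 for Synpo, 0.91 for Actn4, 0.71 for Wt1 and 0.57 for Ptpro. For Podxl it was 0.48, for Plce1 0.46, for Magi2 0.22 and for Cd2ap -0.61. The order of the Con mice was mixed. From lowest to highest, Nphs1 ran through mice 301, 201, 202, 302 and 403, and Synpo and Actn4 followed the same order. Wt1 was lowest in mouse 201 and highest in mouse 302, Podxl was lowest in mouse 301 and highest in mouse 202, and Ptpro and Plce1 were lowest in mouse 301 and highest in mouse 302. Magi2 was lowest in mouse 403 and highest in mouse 302, and Cd2ap was lowest in mouse 403 and highest in mouse 201. The points of a mouse share its library, depth and scaling, so these values are a description.

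Among the 5 genes outside the 9 with the highest correlation with Nphs1 were Lmx1b (0.965), Cdkn1c (0.95), Myom2 (0.94) and Ddn (0.94). Lmx1b is a podocyte transcription factor, Cdkn1c is a cell cycle inhibitor and Ddn is dendrin, a slit diaphragm protein.

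**Figure D4:**
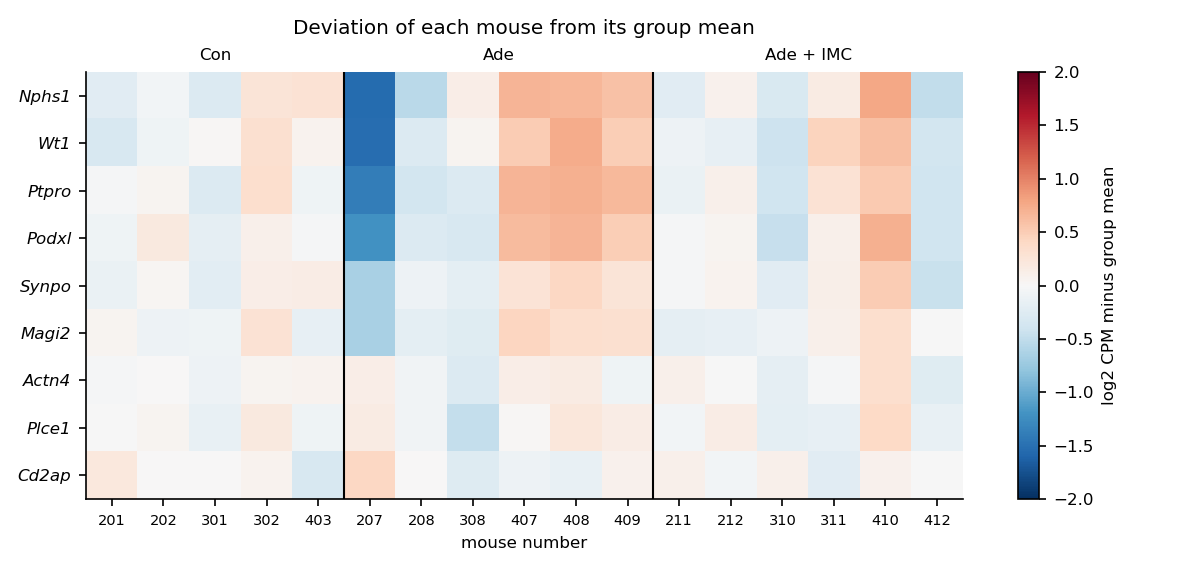
Deviation of log2 CPM from the group mean (colour, log2 units) for each podocyte gene (rows, ordered by their correlation with Nphs1) in each mouse (columns, by group). Ade mouse 207 is low for Nphs1, Wt1, Ptpro, Podxl, Synpo and Magi2, and not for Actn4, Plce1 and Cd2ap.

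Lists of other podocyte genes were described by their counts in Ade against Con, to be read against the 32.2% of all genes called lower and 35.1% called higher. Of 10 slit diaphragm partners tested (12 were found in the files), 7 rose, 1 fell and 2 were not called (median log2 fold change 0.51). Kirrel, a nephrin relative that binds it across the slit, rose from 27.4 ± 1.495 CPM in Con to 73.2 ± 8.27 in Ade (log2 fold change 1.44, adjusted p = 3.13e-08, edgeR). Kirrel3 (1.96) and Fyn, a kinase that phosphorylates nephrin (0.997), also rose. Kirrel3 was low, at 0.784 to 1.63 CPM in Con and 2.84 to 5.62 CPM in Ade. In the smallest Con library 3 counts are 0.389 CPM. Of 13 cytoskeleton genes 9 rose, 1 fell and 3 were not called (median 0.45), with rises of 2.40 for Vim, 1.54 for Inf2 and 2.83 for Anln on the log2 scale. Vim is also a product of fibroblasts and leukocytes and Anln of dividing cells.

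Of 12 glomerular basement membrane and adhesion genes tested (13 were found) 7 rose, 3 fell and 2 were not called (median 0.31). Col4a3 and Col4a4, collagen chains of the mature glomerular basement membrane, fell by 1.35 and 1.02 on the log2 scale. Their means in the Con mice were 851 and 315 CPM, beside 52.2 CPM for Nphs1, and which kidney cells made them was not tested. Agrn, a heparan sulphate proteoglycan of the same membrane, rose by 1.004. Of 7 podocyte transcription factors 4 rose, 0 fell and 3 were not called (median 0.57), including Foxc1 (0.57) and Foxc2 (0.55). Of 17 other podocyte-enriched genes 7 fell, 2 rose and 8 were not called (median -0.27). Bmp7, a growth factor that tubule cells also make, fell by 0.73, and Pdpn and Ptgds rose by 2.54 and 2.75. With the leading digit as a block, 10 of these 17 genes fell and 2 rose (median -0.42), 2 of 11 slit diaphragm partners fell and 6 rose, and 2 of 13 cytoskeleton genes fell and 8 rose, beside the 31.0% and 35.2% of all genes given above for the block. In Ade + IMC against Ade, 0 genes of the 5 lists were called by limma without the block. With the block 3 were called, beside 0.905% of all genes: Vegfa (0.42, adjusted p = 0.0906) and Arhgap24 (0.42, adjusted p = 0.0883) higher and Anln (-0.72, adjusted p = 0.0976) lower. They were 1 of 17 other podocyte-enriched genes and, of 13 cytoskeleton genes, 1 higher and 1 lower. Of the 8 thick limb, distal and collecting duct markers, 2 were also called higher under the block (median 0.44).

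**Figure D5:**
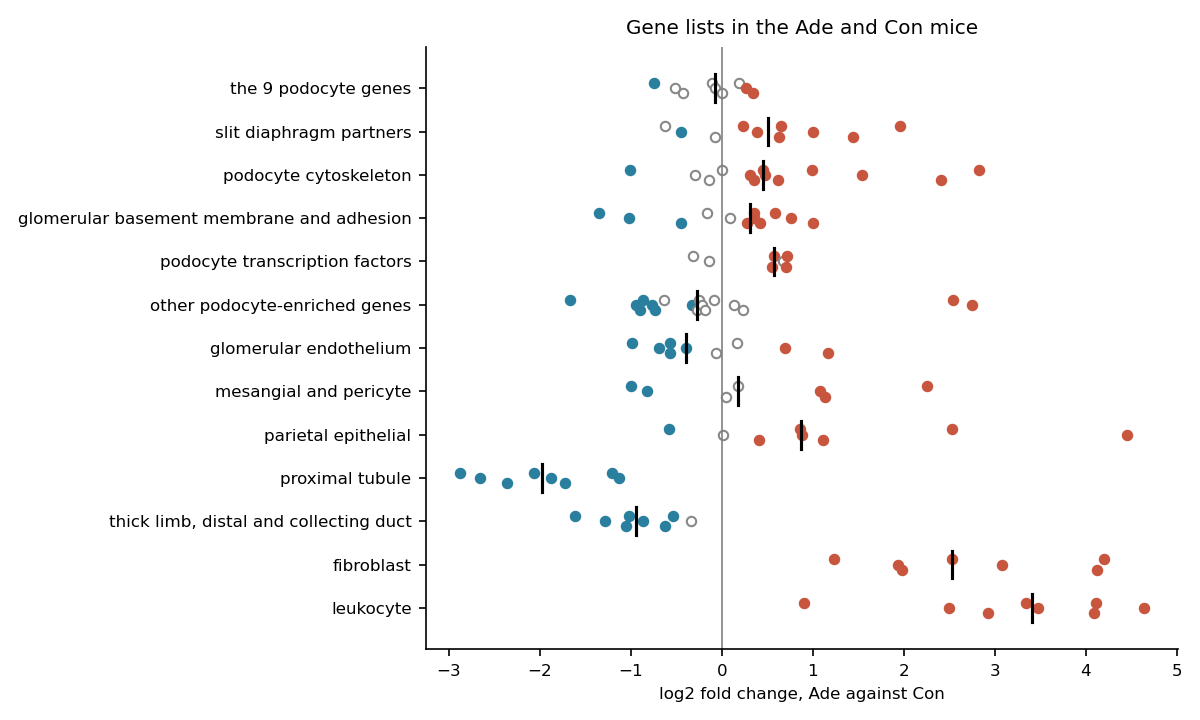
Log2 fold change in Ade against Con (horizontal axis) of the 9 podocyte genes, 5 lists of other podocyte genes and 7 lists of markers of other kidney cells, with 1 point per gene, filled red where called higher, filled blue where called lower and open where not called, and a black bar at the median. The medians are -0.07 for the 9 podocyte genes, -1.97 for the proximal tubule and 3.41 for the leukocyte markers.

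Markers of other kidney cells also changed in Ade against Con, where the genes named are the 3 of each list with the smallest p. All 7 fibroblast markers (led by Col1a1, Col3a1 and Col1a2) and all 8 leukocyte markers (led by Lyz2, Cd68 and Itgam) rose, and all 8 proximal tubule markers (led by Slc5a12, Slc5a2 and Cubn) fell. Of 8 thick limb, distal and collecting duct markers 7 fell (led by Scnn1g, Slc4a1 and Atp6v1g3). Among glomerular neighbours, 5 endothelial markers fell and 2 rose of 9 (led by Plat, Kdr and Sox17), 2 mesangial and pericyte markers fell and 3 rose of 7 (led by Serpine2, Pdgfrb and Des), and 1 parietal epithelial marker fell and 6 rose of 8 (led by Cd44, Ncam1 and Cd9). The summed CPM of the proximal tubule markers was 14797 to 20153 in the Con mice and 2513 to 8326 in the Ade mice, and that of the leukocyte markers 181 to 219 and 1049 to 1749. A CPM is a share of the library, and the part of these shifts in the podocyte values was not tested.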

How the data were processed

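Kidney RNA-seq libraries (Illumina TruSeq, single-end reads) of 5 Con, 6 Ade and 6 Ade + IMC mice were analysed. The authors deposited raw counts per Ensembl gene for Con and Ade. For Ade and Ade + IMC they deposited a signal, each gene count scaled by a median of ratios size factor (DESeq2). The methods name STAR and mm10, and the submitters' processing notes name Trimmomatic 0.39, Bowtie2 2.2.5, HTSeq 0.9.1 and FastQC 0.11.8, so the aligner is uncertain. The authors' own fold changes and p-values were not used. Whole reads were recovered from the deposited signal (100% of values whole within 0.001 reads), 0 values differed from the raw counts of the Ade mice, and no 2 libraries of a group agreed within sampling noise (chi-square per degree of freedom at least 4.21).

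Ade against Con was tested by edgeR 4.0.16 (quasi-likelihood, TMM, filterByExpr) on the raw counts. The SE given for this comparison was not estimated by edgeR. It was derived as the absolute log2 fold change divided by the square root of the F statistic of the test. Ade + IMC against Ade was tested by limma-trend (version 3.58.1), applied to log2(normalized count + 1) for genes with a mean of at least 10, and Ade + IMC against Con by limma on log2 CPM (prior count 2) of the joined reads, in R 4.3.3. All p-values were adjusted over all genes tested, and calls were made below 0.1. DESeq2 1.42.0 was an alternative. The main fit of each of the 3 comparisons was tested on simulated counts, and the alternatives and other steps were not. Nothing in the labels says how the libraries relate beyond 1 library per mouse. Gene models were GENCODE M21 (GRCm38). All 9 members were named, with the 3 list genes of smallest p in Ade against Con and the 5 genes most like Nphs1, except for 2 genes that are not reported here. Alternatives changed the tool, scaling, filter, pseudocount, threshold, block, mice in the fit and mice left out. The members and lists were chosen with earlier results of these data known.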

Additional observations from a re-analysis of the deposited data

Results flagged for a closer look

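In 3 of 54 sets of values (9 genes in 3 groups, as log2 CPM and relative to the other 8 genes), 1 mouse lay apart from the rest of its group by Dixon's criterion, which chance meets in about 5% of sets. Podxl relative to the other genes was 3.17 in Con mouse 202, and 2.85 to 2.94 in the other Con mice. Wt1 relative to the other genes was -2.62 in Ade mouse 207, and -1.75 to -1.33 in the other Ade mice. Synpo relative to the other genes was 1.06 in Ade + IMC mouse 412, and 1.25 to 1.32 in the other Ade + IMC mice. All 3 were on the relative scale, and 0 were in log2 CPM itself.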

How the results depend on the processing

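In Ade against Con the count of called podocyte genes was 3. It was 1 with DESeq2, with no filter on low counts and at an adjusted p below 0.05. With RLE scaling and with all 17 mice in the fit it was 2 (1 lower, 1 higher). It was 4 with upper quartile scaling and 5 with total count scaling (1 lower, 4 higher). When 1 mouse was left out it was 1 to 4, with a count of 1 without Ade mouse 409, Con mouse 201 or Con mouse 301. Total count scaling moved the median of all genes to 0.32 in Ade against Con and to 0.27 in Ade + IMC against Con, and shifted the split of all calls from 4706 lower and 5135 higher to 2497 and 7990, and from 4740 and 4499 to 2261 and 7497. It put Actn4 at 0.19 and Wt1 at 0.22 in Ade against Con, reversed in sign but below the shifted median. Ptpro, at 0.00, took the opposite sign with DESeq2 (-0.025), RLE scaling (-0.018), no filter (-0.018), all 17 mice in the fit (-0.0033) and the leading digit as a block (-0.37), and when 1 mouse was left out Ptpro was at -0.13 to 0.19 and Wt1 at -0.22 to 0.12.

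In Ade + IMC against Con the count of called podocyte genes was 3. It was 4 with upper quartile scaling, which added Ptpro, and 6 with total count scaling, where Actn4 (0.19), Cd2ap (0.27), Nphs1 (0.048) and Podxl (0.21) were reversed in sign, but Actn4, Nphs1 and Podxl lay below the shifted median of 0.27 and Cd2ap level with it. Cd2ap was also reversed with upper quartile scaling (0.059), Cd2ap (0.014) and Podxl (0.0028) with all 17 mice in the fit, and when 1 mouse was left out Cd2ap was at -0.10 to 0.032, Podxl at -0.21 to 0.040 and the count of called podocyte genes at 3 to 4. In Ade + IMC against Ade the count over all genes rose from 0 to 37 with DESeq2 and to 133 with the block, 0 of them among the 9 genes, and when 1 mouse was left out Actn4 was at -0.0089 to 0.11 and Synpo at -0.0089 to 0.21. The cause of these changes was not tested, apart from those that follow from fewer mice or a stricter threshold. Magi2 kept its direction and call in each setting of both comparisons with Con. No paired analysis was possible because the mouse numbers of the labels are not shared between groups. The depth limits the lowest genes: 63 to 406 Wt1 reads per mouse.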
